A study of Mus musculus with 6 samples.

Results

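The genes described here are 9 genes through which a cell takes up lipoproteins and handles the cholesterol and cholesteryl ester they carry. They were chosen by gene symbol, with earlier results of these data known. Scarb1, Vldlr and Lrp8 encode receptors, Apoe, Apoa1 and Apoc1 encode apolipoproteins, and Lipa, Npc1 and Soat1 encode intracellular enzymes and carriers. All 9 were among the 46078 genes listed, and all 9 passed a filter on low values that required 1 RPKM or more in 3 or more of the 6 libraries and left 14535 genes to test. RPKM, reads per kilobase of exon scaled to the size of the library, puts genes of different length on 1 scale.

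Whole ovaries came from C57BL/6 mice that were 8 to 9 weeks old. There were 3 control libraries, with no further treatment named, and 3 libraries from mice given cyclophosphamide (CTX), an alkylating drug used in chemotherapy. By its title, the series examines how the drug affects development of the ovary. The labels name no dose, route or interval after treatment. The labels do not tie libraries to separate animals, so tests measure the spread between these libraries, which may be technical.

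Cells that make steroid hormones need cholesterol. Besides making it, they take it from circulating lipoproteins, either as cholesteryl ester drawn selectively from high-density lipoprotein by the scavenger receptor SR-BI, the product of Scarb1, or by endocytosis of whole particles through endocytic lipoprotein receptors. Ester that enters by endocytosis is cut in lysosomes by the acid lipase LIPA, and the free cholesterol leaves through NPC2 and NPC1. Surplus cholesterol is esterified again by SOAT1 and kept in lipid droplets, and in rodents the selective route is known as the main supply of the corpus luteum.

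Levels of cell type markers differed between libraries in a way that crossed the groups. The mean log2(RPKM + 1) of 10 luteal cell markers was 8.63, 8.86 and 7.08 for controls 1, 2 and 3. For CTX 1, 2 and 3 it was 8.98, 7.0 and 7.01. All 10 passed the filter, and their summed RPKM was 4909 to 10362 over the controls and 3820 to 12648 over the CTX libraries. Controls 1 and 2 and CTX 1 were thus high in luteal genes, and control 3 and CTX 2 and 3 were low. Means of 7 granulosa cell markers ran the other way, at 5.70, 5.64 and 6.85 in control and 4.69, 6.92 and 6.90 in CTX. So did those of 10 oocyte markers (3.70, 3.52 and 4.61, and 3.06, 4.72 and 4.78). Not each granulosa marker did so, since Foxl2 was even, at 78.9 to 94.0 RPKM. Inhbb had 92.6, 80.3 and 255 RPKM in control and 20.3, 69.0 and 71.1 in CTX. The scale of the values corresponds to 15800000 to 22100000 reads per library. In whole tissue, fewer cells of a type and less RNA per cell cannot be told apart.

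In order of mean level over the 6 libraries, Apoe stood first at 548 RPKM, followed by Scarb1 (142), Soat1 (113), Lipa (31.8), Apoa1 (20.9), Lrp8 (9.87), Vldlr (8.11), Npc1 (7.46) and Apoc1 (3.88). Apoe exceeded Scarb1, Soat1 exceeded Lipa and Npc1 exceeded Apoc1 in each of the 6 libraries. Scarb1 exceeded Soat1 in only 3 libraries, Apoa1 exceeded Lrp8 in 3 and Lrp8 exceeded Vldlr in 3, so those neighbours in the order were not separated beyond their spread.

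**Figure D1:**
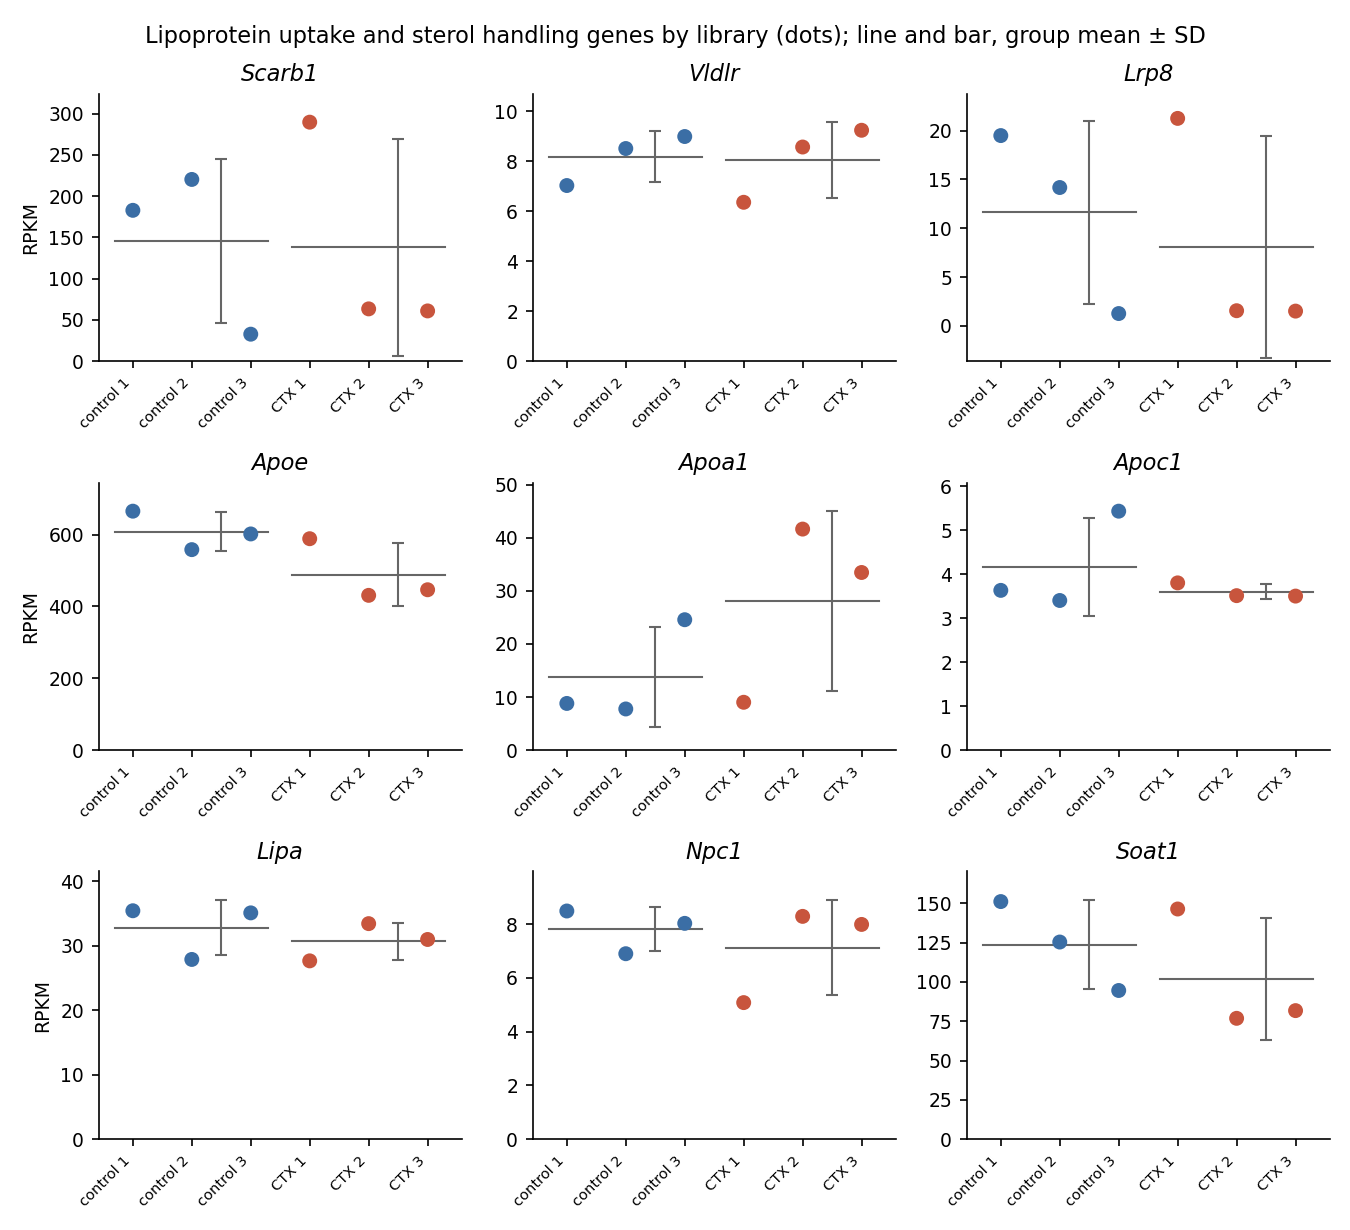
RPKM (vertical axes, each on its own scale) of the 9 genes in each library, controls in blue and CTX in red, with a line and bar for each group's mean ± SD (n = 3). Scarb1, Lrp8 and Soat1 were highest in controls 1 and 2 and CTX 1, Apoa1 was highest in control 3 and CTX 2 and 3, and the other 5 genes varied less than 1.7-fold.

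Among the receptors, Scarb1 and Lrp8 varied most between libraries, and neither separated CTX from control. Scarb1 (ENSMUSG00000037936) lies on the minus strand of chromosome 5 (125277087 to 125341094, mm10). Controls 1, 2 and 3 had 183, 220 and 32.6 RPKM, and CTX 1, 2 and 3 had 290, 63.3 and 60.8, the order in which library values are given from here on. CTX 1 was the highest and control 3 the lowest of the 6, an 8.88-fold range, and the groups overlapped. The control mean was 145 ± 99.3 RPKM and the CTX mean 138 ± 131, where ± gives the SD of 3 libraries, as for all group means that follow.

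Lrp8 (ENSMUSG00000028613), on the plus strand of chromosome 4 (107802261 to 107876840), encodes apolipoprotein E receptor 2, which also binds the signalling protein reelin. It had 19.5, 14.2 and 1.26 RPKM in control and 21.3, 1.55 and 1.51 in CTX. The same 3 libraries were high as for Scarb1, and the range of 16.9-fold was the widest of the 9 genes. On the log2(RPKM + 1) scale its SD over the 6 libraries was 1.64, above that of 99.8% of tested genes, and for Scarb1 it was 1.24, above 99.3%.

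Vldlr (ENSMUSG00000024924), on the plus strand of chromosome 19 (27216484 to 27254231), encodes the very-low-density lipoprotein receptor, the closest relative of the Lrp8 product. Its range was narrow, at 1.45-fold, with 7.02, 8.5 and 8.98 RPKM in control and 6.35, 8.56 and 9.23 in CTX. Control 3 and CTX 2 and 3 were its 3 highest libraries, the reverse of Lrp8, though control 2 lay close below CTX 2. The ratio of Vldlr to Lrp8 RPKM was 0.36, 0.60 and 7.13 in control and 0.299, 5.52 and 6.11 in CTX. Lrp8 was therefore the more abundant of the pair in controls 1 and 2 and CTX 1, and Vldlr in the other 3 libraries.

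Lrp8, Scarb1 and Apoa1 had the largest spread over the libraries, and promoter windows of Lrp8 and Apoa1 are shown because their transcripts moved in opposite directions across the same libraries. The windows run from 250 bases before to 50 bases after an annotated start, 5′ to 3′ on the gene's strand, from RefSeq on GRCm38.p6, the assembly also called mm10. RefSeq windows matched 6 of the 9 genes by symbol (not Scarb1, Apoc1 and Npc1), with 11 starts in all. Capitals mark a match to any of 3 motifs searched on both strands. These were AAGGTCA, a site of NR5A receptors such as SF-1, found in 4.72% of 32851 windows of this length, TCACNCCAC, a form of the sterol regulatory element (1.24%), and GGGCGG, the GC box (35.7%).
Lrp8 outermost start, chr4:107802635-107802934, plus strand: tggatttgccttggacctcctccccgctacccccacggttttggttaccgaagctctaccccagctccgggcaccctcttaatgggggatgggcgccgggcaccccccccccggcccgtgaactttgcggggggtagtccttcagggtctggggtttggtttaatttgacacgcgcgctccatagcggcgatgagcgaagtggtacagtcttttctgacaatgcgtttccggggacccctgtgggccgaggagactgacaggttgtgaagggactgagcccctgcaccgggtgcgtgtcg
Lrp8 most internal start, chr4:107830703-107831002, plus strand: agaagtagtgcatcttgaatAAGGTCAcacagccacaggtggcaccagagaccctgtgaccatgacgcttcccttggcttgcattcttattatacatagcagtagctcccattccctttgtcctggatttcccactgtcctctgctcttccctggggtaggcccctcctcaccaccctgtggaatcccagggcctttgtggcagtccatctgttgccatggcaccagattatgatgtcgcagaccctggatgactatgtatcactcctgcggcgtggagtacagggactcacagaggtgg
Apoa1, chr9:46228380-46228679, plus strand: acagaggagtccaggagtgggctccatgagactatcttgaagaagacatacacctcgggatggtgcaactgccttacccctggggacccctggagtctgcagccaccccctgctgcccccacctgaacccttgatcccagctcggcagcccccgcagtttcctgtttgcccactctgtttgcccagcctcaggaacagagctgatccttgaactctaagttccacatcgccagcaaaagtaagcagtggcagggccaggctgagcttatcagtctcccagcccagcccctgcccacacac
Of 3 Lrp8 windows, the most internal held 1 AAGGTCA, beginning at position -230 from its start, and is shown for that match. The other Lrp8 windows, 1 of them not shown, and the Apoa1 window held none of the 3 motifs. The expression values are sums over a gene and do not tell which start was used. A match is a stretch of letters and not evidence of binding.

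Apoe (ENSMUSG00000002985), on the minus strand of chromosome 7 (19696109 to 19699188), encodes an apolipoprotein that endocytic lipoprotein receptors bind. It was abundant in every library, with 665, 558 and 602 RPKM in control and 588, 431 and 446 in CTX. CTX 2 and 3 were the lowest of the 6, but CTX 1 lay within the controls. Means were 608 ± 53.8 RPKM in control and 488 ± 86.9 in CTX.

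Apoa1 (ENSMUSG00000032083), on the plus strand of chromosome 9 (46228580 to 46230466), encodes the main protein of high-density lipoprotein, the ligand of SR-BI. It ran opposite to Scarb1, with 8.79, 7.75 and 24.6 RPKM in control and 9.01, 41.7 and 33.5 in CTX. CTX 2, CTX 3 and control 3 were high and the other 3 libraries lay close together, so the CTX mean of 28.0 ± 17.0 against 13.7 ± 9.43 in control rested on CTX 2 and 3. All 7 adipocyte markers were higher in those 3 libraries than in the other 3, and 6 of them passed the filter. Their summed RPKM was 5.83 to 151 over the controls and 6.85 to 210 over the CTX libraries, and Adipoq, the adiponectin gene, was listed at 0 in control 2 and at 0.27 and 0.08 in control 1 and CTX 1. Adipocyte markers were not alone in this. The mean of 4 theca cell markers was 3.83, 3.37 and 4.80 in control and 3.91, 5.36 and 5.31 in CTX. It was thus highest in the same libraries, as were the granulosa cell and oocyte means given above. Among the theca markers, Insl3 was higher in CTX 1 (16.9 RPKM) than in control 3 (13.2). Liver and gut are the main sites of Apoa1 expression in the body. Of 8 hepatocyte markers, Alb was at most 0.11 RPKM, Ttr and Fgb were listed at 0 in all libraries, and Ahsg had 0.60 to 1.19. Cyp2e1 alone passed the filter, with 7.36, 3.66 and 9.55 RPKM over the controls and 3.71, 12.6 and 12.2 over the CTX libraries, and it was highest in the same 3 libraries as Apoa1. The 4 enterocyte markers were at most 0.13. The part of the cells behind these markers in the Apoa1 values was not tested.

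Apoc1 (ENSMUSG00000040564), on the minus strand of chromosome 7 (19689481 to 19692660) beside Apoe, encodes a small exchangeable apolipoprotein. It was low throughout, with 3.63, 3.40 and 5.43 RPKM in control and 3.80, 3.51 and 3.50 in CTX, and only control 3 stood apart. With 744 exonic bases, these values rest on about 40 to 68 reads per library, the fewest of the 9 genes. The ratio of Apoe to Apoc1 RPKM was 111 to 183 over the 6 libraries, lowest in control 3 and highest in control 1.

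Of the intracellular genes, Soat1 followed the luteal libraries in a weaker form, and Lipa and Npc1 did not. Soat1 (ENSMUSG00000026600), on the minus strand of chromosome 1 (156424525 to 156474331), encodes sterol O-acyltransferase 1, the enzyme that makes cholesteryl ester for storage. It had 151, 125 and 94.6 RPKM in control and 146, 76.8 and 81.7 in CTX. CTX 2 and 3 were the lowest and CTX 1 lay within the controls, with means of 124 ± 28.3 RPKM and 102 ± 38.8.

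Lipa (ENSMUSG00000024781), on the minus strand of chromosome 19 (34492318 to 34527474), was the most even of the 9 genes. It had 35.5, 27.9 and 35.1 RPKM in control and 27.7, 33.5 and 31.0 in CTX, a range of 1.28-fold. The ratio of Soat1 to Lipa RPKM, a ratio of transcripts and not of enzyme activity, was 4.26, 4.50 and 2.69 in control and 5.29, 2.30 and 2.64 in CTX. It was highest in the 3 libraries with high luteal markers, with overlapping groups.

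Npc1 (ENSMUSG00000024413), on the minus strand of chromosome 18 (12189692 to 12236400), had 8.49, 6.90 and 8.03 RPKM in control and 5.08, 8.29 and 7.99 in CTX. CTX 1 was the lowest library, and the others spanned 6.90 to 8.49. The typical gene was also low in CTX 1. Its median shift from its mean over the 6 libraries was -0.17, on log2 RPKM without the added 1. That median was taken over all genes above 0 in all 6 libraries, whether or not they passed the filter. On the log2(RPKM + 1) scale Npc1 lay at -0.46 from its mean there, Vldlr at -0.30 and Lipa at -0.19. Npc1 shares 511 exonic bases with Rmc1 on the opposite strand, which had 5.68 to 6.38 RPKM, and the counting may not separate their reads since the sources used here do not say whether strand was used. Its lysosomal partner Npc2 behaved differently, with 134, 155 and 63.0 RPKM in control and 234, 57.0 and 60.4 in CTX, highest in CTX 1 where Npc1 was lowest.

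**Figure D2:**
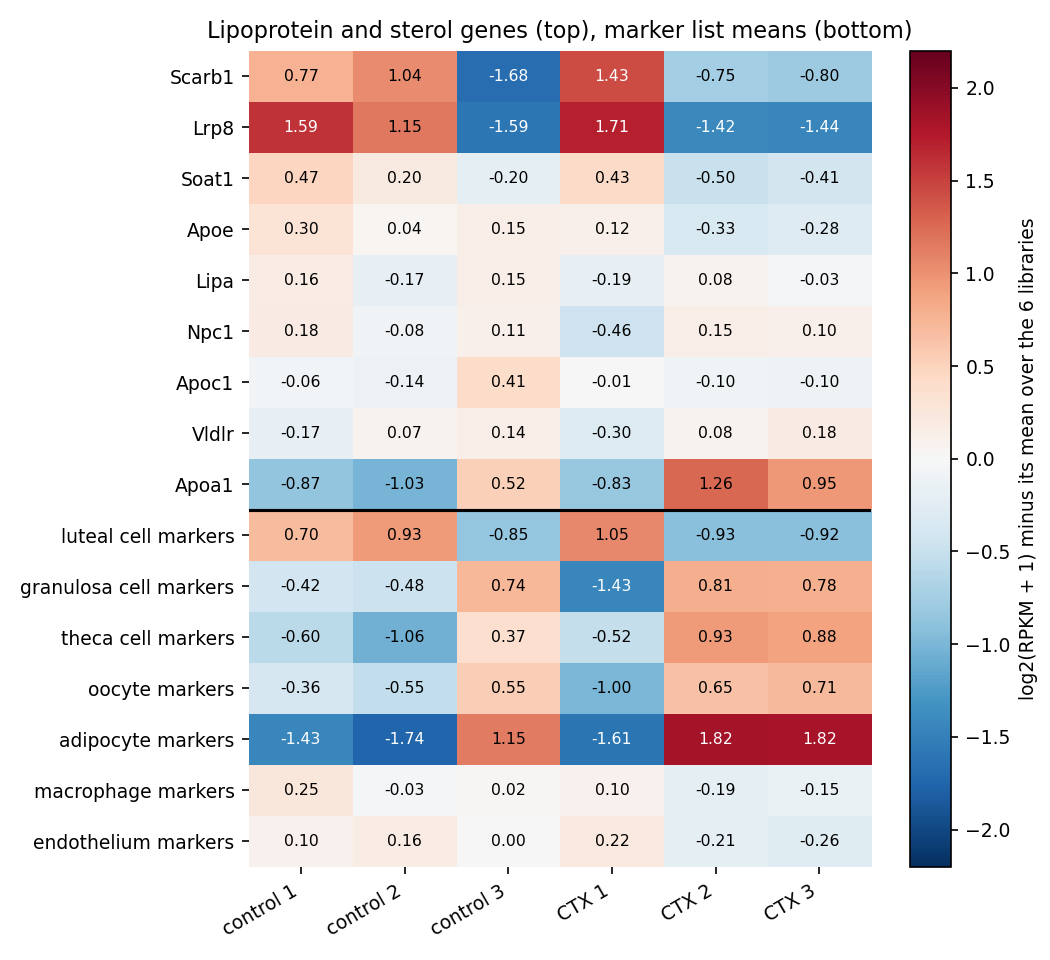
log2(RPKM + 1) of each gene (above the line) and of each marker list mean (below it), minus its own mean over the 6 libraries, with libraries in columns and the values written in the cells. Lrp8 spanned -1.59 to 1.71 and Scarb1 -1.68 to 1.43 along with the luteal markers, Apoa1 spanned -1.03 to 1.26 in the opposite direction, and Lipa stayed between -0.19 and 0.16.

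None of the 9 genes passed the test of CTX against control. Limma, with p-values adjusted by Benjamini-Hochberg over all 14535 genes, called 0 of the 9 and 0% of all tested genes, and the adjusted p was 1.00 for each of the 9. At an unadjusted p under 0.05 there were 0 of 9, beside 3.45% (501 genes) of all tested genes. In 0 of 9 did the 3 CTX libraries lie wholly above or below the 3 controls, beside 8.83% of tested genes. The fitted differences were negative in 8 of the 9, with a median of -0.14 on the log2 scale. Over all tested genes 51.2% were negative and the median was -0.01.

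The precision of these differences followed the spread of each gene. For Lipa the log2 fold change, CTX minus control on the log2(RPKM + 1) scale, was -0.09 ± 0.14 (SE) with a 95% interval of -0.43 to 0.25, and for Vldlr it was -0.03 ± 0.17 (-0.43 to 0.38). Npc1 had -0.14 ± 0.19 (-0.61 to 0.33), Apoc1 -0.14 ± 0.18 (-0.57 to 0.28) and Apoe -0.33 ± 0.19 (-0.78 to 0.13). In these 5 genes a doubling or halving lay outside the interval. Soat1 had -0.32 ± 0.30 (-1.03 to 0.40). The intervals were far wider for Apoa1, at 0.92 ± 0.65 (-0.66 to 2.49), Scarb1, at -0.08 ± 0.91 (-2.27 to 2.11), and Lrp8, at -0.77 ± 1.15 (-3.54 to 2.01). They include changes of severalfold in both directions for Scarb1 and Lrp8, and severalfold increases for Apoa1.

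**Figure D3:**
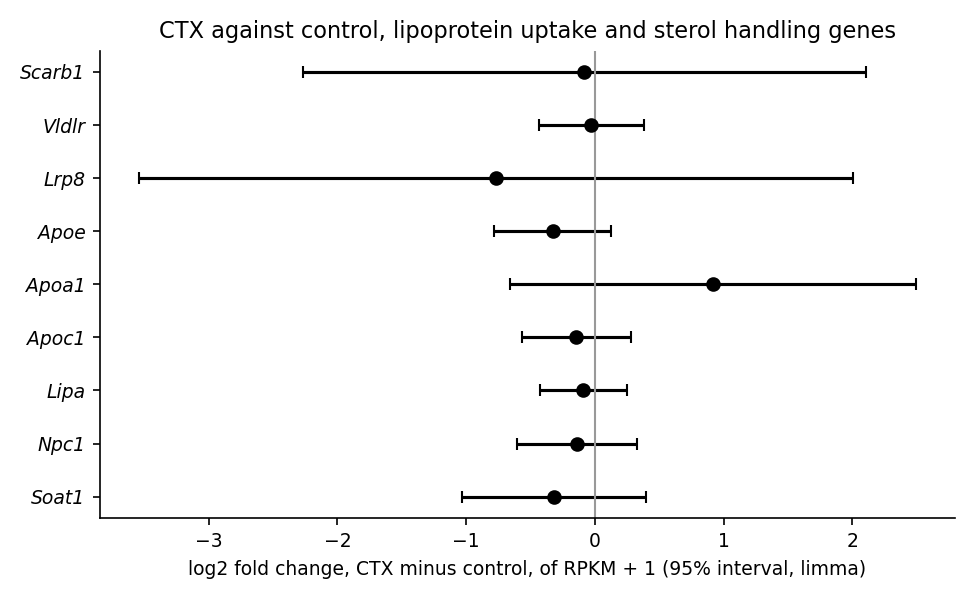
Fitted log2 fold change of RPKM + 1, CTX minus control (horizontal axis), for each of the 9 genes, with 95% intervals from limma (3 libraries per group). All 9 intervals include 0, and those of Scarb1, Lrp8 and Apoa1 are the widest.

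Set beside libraries of like luteal level, a comparison chosen after the values were seen, the CTX values of Scarb1 lay higher. CTX 1 (290 RPKM) lay above controls 1 and 2 (183 and 220). Its luteal marker mean was also above theirs, at 8.98 against 8.63 and 8.86. CTX 2 and 3 (63.3 and 60.8) lay above control 3 (32.6), whose luteal marker mean was 7.08 against 7.0 and 7.01. Single luteal markers were divided between these 3 libraries. Star (293 against 65.8 and 65.0 RPKM), Hsd3b1, Fdx1, Fdxr and Prlr were higher in control 3. Lhcgr (43.7 against 111 and 108), Cyp11a1, Ptgfr, Sfrp4 and Akr1c18 were lower there. Apoa1 showed the same order as Scarb1, with 9.01 in CTX 1 against 8.79 and 7.75, and 41.7 and 33.5 in CTX 2 and 3 against 24.6. So did Lrp8, with 21.3 against 19.5 and 14.2, and 1.55 and 1.51 against 1.26. Lipa had the reverse order, with 27.7 against 35.5 and 27.9, and 33.5 and 31.0 against 35.1. Vldlr, Apoe, Apoc1, Npc1 and Soat1 had neither order. The share of all tested genes with such an order was not counted, so these orders cannot be called unusual, and some margins were small. With the luteal marker mean as a covariate in limma, the log2 fold change of Scarb1 was 0.60 ± 0.18 (unadjusted p = 0.0140, adjusted p = 0.281) and that of Apoa1 was 0.42 ± 0.11 (unadjusted p = 0.00794, adjusted p = 0.240). These 2 of 9 genes were under an unadjusted p of 0.05, beside 13.8% of all tested genes in that fit, and neither passed after adjustment. Lrp8 had 0.10 ± 0.23 and Soat1 -0.11 ± 0.13 in the same fit. The covariate was not independent of the groups. Without it, all 10 luteal markers had negative CTX differences, with a median log2 fold change of -0.42, though none was called. Values fitted at a like luteal level therefore cannot be read as the effect of CTX on these genes. The direction for Scarb1 without the covariate turned when any of control 1, control 2, CTX 2 or CTX 3 was left out (0.28, 0.42, 0.27 and 0.30), so it rested on which libraries entered.

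**Figure D4:**
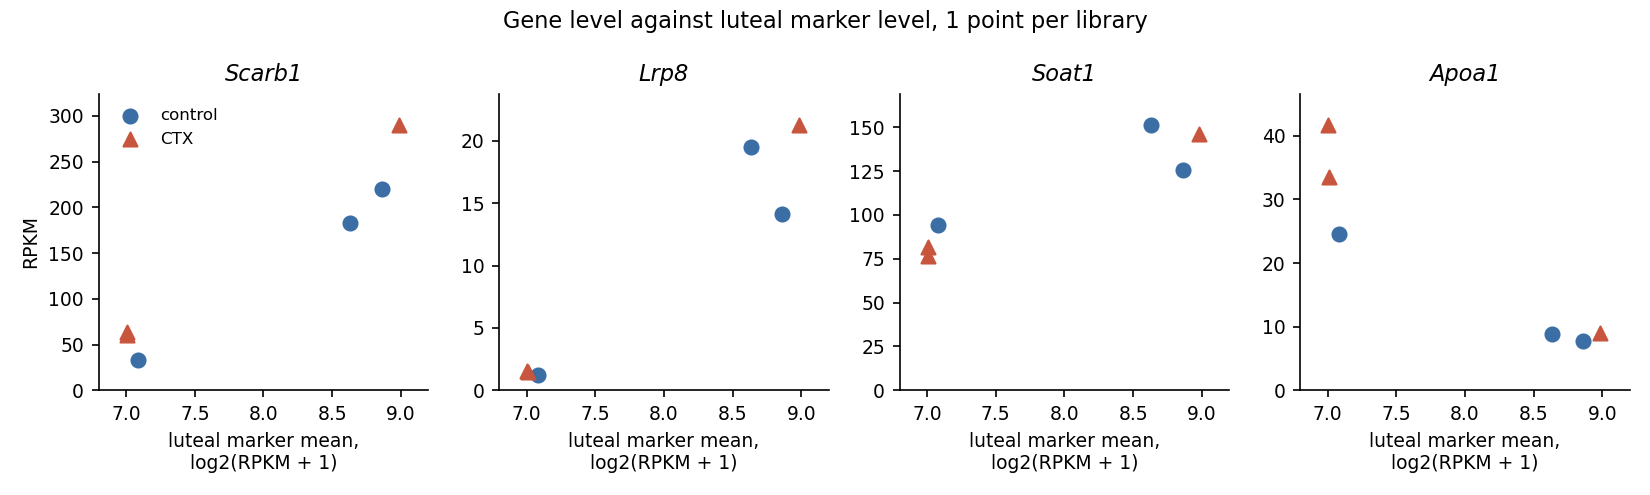
RPKM of Scarb1, Lrp8, Soat1 and Apoa1 (vertical axes) against the mean log2(RPKM + 1) of 10 luteal markers (horizontal axes), 1 point per library, controls as circles and CTX as triangles. The libraries form 2 clusters on the horizontal axis, at 7.0 to 7.08 and at 8.63 to 8.98, and within each cluster the Scarb1 points of CTX lie above those of control.

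The rest of the pathway was read from 72 further genes in 8 lists, of which 49 passed the filter. Limma called 0 of them, and 1 was under an unadjusted p of 0.05, no larger a share than the 3.45% of all tested genes. That gene was Abca1, encoding the transporter that exports cholesterol to apolipoprotein A-I. It had 35.3, 31.5 and 40.6 RPKM in control and 26.4, 25.3 and 25.9 in CTX, so all 3 CTX libraries lay below all 3 controls. Its log2 fold change was -0.45 ± 0.12, with an unadjusted p of 0.00997 and an adjusted p of 1.00. Groups did not overlap in 3 of the 49, Abca1 and the endosomal sterol carrier gene Stard3 lower (12.0, 11.6 and 12.7 against 10.4, 11.4 and 11) and the scavenger receptor gene Msr1 higher, a share below the 8.83% of all tested genes. Of the 49, 22 had positive and 27 negative differences, with a median of -0.03.

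Other receptors had 7 of 13 genes tested. Lrp1, encoding a large endocytic receptor, went the opposite way to Scarb1 (46.7, 35.4 and 62.1, and 20.7, 77.9 and 69.9), as did the fatty acid and lipoprotein receptor gene Cd36 (11.6, 7.18 and 22.4, and 9.74, 27.8 and 31.8). Among 6 tested of 9 receptor partners, the sorting nexin gene Snx17 averaged 36.6 ± 0.743 RPKM over the controls against 38.1 ± 11.3 over the CTX libraries. The chaperone gene Lrpap1 averaged 29.6 ± 1.13 and 29.1 ± 2.42.

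Only 3 of 11 other apolipoprotein genes passed the filter. Clu, encoding clusterin or apolipoprotein J, was even at 309 ± 13.1 RPKM in control and 295 ± 17.6 in CTX. Apoa4 varied with Apoa1, at 19.7, 13.5 and 53.4 in control and 8.84, 78.0 and 76.7 in CTX. Of 8 tested among 10 lipases and remodelling genes, the endothelial lipase gene Lipg had 102, 121 and 11.8 RPKM in control and 129, 14.4 and 13.2 in CTX, high in the libraries where Lrp8 and Scarb1 were high. The lipase inhibitor gene Angptl4 had 29.0 ± 8.16 and 25.5 ± 2.91, and the lipoprotein lipase gene Lpl had 12.5 ± 2.90 and 17.1 ± 4.83.

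Among other sterol carriers, with 11 of 12 tested, Gramd1b, encoding a carrier from the plasma membrane to the endoplasmic reticulum, had 66.2 ± 9.08 RPKM in control and 60.6 ± 26.1 in CTX. Of the other ester enzymes (3 of 4 tested), the neutral hydrolase genes Nceh1 and Lipe had 14.1 ± 0.996 and 13.5 ± 1.42, and 12.8 ± 2.98 and 12.9 ± 5.18, in control and CTX. Soat2, the second acyltransferase gene, was far below Soat1. Controls had 4.64, 5.06 and 0.70 RPKM, and CTX libraries had 5.05, 0.63 and 0.72, again high where luteal markers were high. Abcg1, the other efflux transporter gene among the most abundant, had 4.60 ± 0.900 and 4.86 ± 0.858 (3 of 5 tested). All 8 regulators passed the filter. The nuclear receptor gene Nr5a2 had 83.3 ± 12.5 and 80.7 ± 23.3 RPKM, its relative Nr5a1, encoding SF-1, had 68.8 ± 22.9 and 87.4 ± 34.2, and the oxysterol receptor gene Nr1h3 had 4.63 ± 0.918 and 3.06 ± 1.20.

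For each of the 9 genes the tested genes with the nearest profile were found by the root mean square difference of centred log2(RPKM + 1) values over the 6 libraries, as a description. Nearest to Scarb1 were Myo7a (0.22), Rhod (0.22) and Unc13d (0.27), and nearest to Lrp8 were Adra1d (0.20), Lipg (0.21) and Dusp1 (0.22). Apoa1 was nearest to Fshr, the FSH receptor gene of granulosa cells (0.11), which had 4.83, 4.09 and 13.0 RPKM in control and 4.03, 21.3 and 20.3 in CTX, and then to Bpifb5 (0.12) and Omd (0.14). Soat1 was nearest to Tspan5 (0.05), Vmp1 (0.06) and Plaur (0.07), and Apoe to Fmnl1 (0.03), Parp3 (0.04) and Rell1 (0.05). The even genes had many close neighbours, with 3.65% of tested genes within 0.1 of Vldlr, 3.58% of Npc1 and 2.42% of Lipa. Their nearest were Prmt6, Vangl2 and Rbmx2 for Vldlr, Gm12250, Gapdhs and Ccdc93 for Npc1, and Irf8, Trip10 and Ggh for Lipa, while Apoc1 was nearest to Lcmt2, Vegfc and Zfp688. Between the 9 genes themselves, Lipa and Npc1 were closest (0.13) and Lrp8 and Apoa1 farthest apart (2.40).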

How the data were processed

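RNA from whole ovaries was sequenced from 1 µg of total RNA per Illumina TruSeq library, per the labels' protocols. The authors deposited 1 value per gene and library, taken as RPKM because in short genes (up to 1000 exonic bases) with few reads (up to 15) the value times exon length was a whole multiple of 1 step, within 0.2, for 97.7 to 98.0% of values. That step gives the depth of each library. The submitters' processing notes name Bowtie 0.12.2 and mm10. No counter, annotation or strand setting is given in the sources used here.

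Exon lengths and positions came from GENCODE M21 (GRCm38), which matched 98% of identifiers. The closest pair of libraries, CTX 2 and 3, had a median chi-square per gene of 1.50, where sampling noise gives 0.455. None was merged. Since 0.455 covers the sampling of reads only, this value cannot tell separate animals from repeat preparations of the same sample. CTX was compared with control on log2(RPKM + 1), which understates changes of low genes. The test was limma 3.58.1 (R 4.3.3) with a mean-variance trend, two-sided, called at an adjusted p under 0.05. The code was checked on simulated data with independent noise of the same size in every gene. Those data lacked the luteal differences that the real libraries share, so the check does not cover them. Other tables used Python 3.11.15.

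All 9 members are named. Of each pathway list, the 2 most abundant genes, the smallest p and up to 3 called genes are named, and for each member the 3 nearest profiles. Some genes that this rule selects are not reported here. Msr1, the marker genes and the ratios were picked after values were seen. Members and lists were chosen with earlier results of these data known. Alternatives were pseudocounts of 0.1 and 0.5, no filter, 2 scalings, no trend, the replicate block, the luteal covariate and each library left out.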

Additional observations from a re-analysis of the deposited data

How the results depend on the processing

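No member was called under any of the 14 alternatives, where the smallest adjusted p of any member was 0.235 (Apoe without CTX 1). Of 126 refitted member values, 115 kept their direction and 11 turned. Apoe, Apoa1, Lipa and Soat1 kept theirs throughout, though not their size. With the luteal marker covariate Scarb1 turned to 0.60 and Lrp8 to 0.10. Leaving out 1 library in turn gave Scarb1 -0.94 to 0.42, Vldlr -0.12 to 0.12, Apoc1 -0.25 to 0.028 (upward without control 3) and Npc1 -0.25 to 0.058 (upward without CTX 1). It also gave Lrp8 -1.81 to -0.17, Apoa1 0.52 to 1.56, Soat1 -0.61 to -0.15, Apoe -0.47 to -0.24 and Lipa -0.20 to -0.02. Scarb1 was lowest without control 3 and turned without control 1, control 2, CTX 2 or CTX 3, and Vldlr turned without control 2, control 3 or CTX 1.

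Over all genes limma called 0, but 17 without a filter on 46078 genes (the cause was not tested) and 2 with the luteal covariate (Coro2a and Inhbb, lower). Leaving out 1 library gave 0 to 5, the 5 without CTX 1 (C7 and Slc38a3 higher, with Mgst2, Hao2 and Pgbd5 lower). These 7 genes are named after their values were seen. With the replicate block the count stayed at 0, with 456 genes at an unadjusted p under 0.05. Deviations of same-numbered libraries from their group means correlated at 0.40, -0.54 and 0.60 across genes. Over all pairs of a control and a CTX library, the correlation was positive where luteal levels were alike and negative where they differed. These values therefore cannot tell whether replicate numbers pair the libraries. With 3 libraries per group the spread between libraries limits what could be detected for Scarb1, Lrp8 and Apoa1.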
